A study of Mus musculus with 6 samples.

Results

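The data on renal arginine and creatine synthesis cover 9 genes, compared between kidneys of wild-type (WT) and Selenbp1-KO mice: Gatm, Ass1, Asl, Arg2, Oat, Agmat, Ddah1, Ckb, and Ckmt1. They were found by the gene name that the array gives each probe, and 14 of 56605 probes carried one of these names, for 9 of 37028 genes tested. Each kidney came from a male mouse, 8 weeks old and fasted for 20 h. There were 3 WT mice (replicates 2, 3, and 4) and 3 mice deficient in selenium-binding protein 1 (Selenbp1-KO, replicates 1, 2, and 3). The methods name the WT mice as C57BL/6J and give no background strain for the Selenbp1-KO mice. RNA of the whole left kidney was labeled with Cy3 and hybridized to 6 Agilent arrays, 1 per mouse, to ask which genes differ in Selenbp1 deficiency. Fasting was common to all 6 mice, so its effect was not measured. The WT mice were bought from a supplier, the allele of the Selenbp1-KO line is not described in the sources used here, and they do not say whether the groups were littermates.

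The kidney releases arginine into the blood. Cells of the proximal tubule take up citrulline, and argininosuccinate synthase (Ass1) and argininosuccinate lyase (Asl) turn it into arginine. Glycine amidinotransferase (Gatm) uses that arginine to make guanidinoacetate, the precursor of creatine, which is methylated mainly in the liver. Other enzymes consume arginine or its products: arginase 2 (Arg2) makes ornithine, ornithine aminotransferase (Oat) degrades ornithine, agmatinase (Agmat) splits agmatine into putrescine and urea, and Ddah1 degrades asymmetric dimethylarginine, an inhibitor of nitric oxide synthases. The creatine kinases Ckb (cytosolic) and Ckmt1 (mitochondrial) pass phosphate between ATP and creatine.

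The signal of Ddah1 was lower in Selenbp1-KO kidneys by both of its probes, and no other member passed the criterion. The arginine-making enzymes, Gatm, and the ornithine enzymes differed by 0.14 or less on the log2 scale, and the creatine kinases were 0.12 to 0.24 higher without passing the test. The log2 signal used throughout is the log2 of the background-subtracted intensity minus the log2 of the 75th percentile of the same array, so 0 is the level of that percentile. Values of single arrays are given in the order of the replicate numbers, 2, 3, and 4 for WT and 1, 2, and 3 for Selenbp1-KO. A probe was called when limma, fitted across 56097 probes, gave it a p under 0.05 before adjustment, as the methods did, and 7.98% of all probes were called. Of the 14 member probes 2 were called, both lower, against 1.51% of all probes called lower and 6.47% called higher. After Benjamini–Hochberg adjustment over all probes no member had an adjusted p under 0.05 in limma, and of all probes only those of Selenbp1 and Selenbp2 did (0.00357%). All 14 probes were well above background on all 6 arrays, with none flagged and none saturated. Among probes that were well above background throughout WT or throughout Selenbp1-KO arrays, 5.65% were called and 1.81% were called lower. By brightest probe, 1 of the 9 member genes was called, against 8.00% of all genes (1.13% lower and 6.87% higher). The median difference, Selenbp1-KO minus WT, was 0.11 over all probes. By brightest probe it was 0.13 over all genes and −0.05 over the 9 member genes. Over all genes well above background on all 6 arrays it was 0.02.

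All arrays lay on 1 slide, with WT replicates 2 and 3 in row 1 and WT replicate 4 and the 3 Selenbp1-KO replicates in row 2, so only WT replicate 4 shared a row with the Selenbp1-KO arrays. Between 51.8% and 55.5% of the spots of an array were well above background. Selenbp1 itself differed by −2.96 (adjusted p = 0.0021, limma), with the arrays of each genotype apart as labelled. All 8 proximal tubule markers, among them Lrp2 and Slc34a1, were well above background on all 6 arrays, and none was called (median difference −0.01). Of 5 macrophage markers 3 were called higher in Selenbp1-KO kidneys (C1qa 0.58, C1qb 0.51, and Cd68 0.36), and of 3 fat markers none was called. Whether these arrays come from separate litters or days is not stated, and the p-values measure the spread between these 6 mice.

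The sequences of 3 probes are shown, because the results turn on Ddah1, because Gatm makes the creatine precursor, and because Ckb is a member whose arrays lay apart in the opposite direction. They are the 60-base probes of the array in lower case, on mm9: Ddah1 on chr3:145516152-145516211 (plus strand), the dimmer Gatm probe on chr2:122423164-122423223 (minus strand), and the brighter Ckb probe on chr12:112907787-112907846 (minus strand).
Ddah1: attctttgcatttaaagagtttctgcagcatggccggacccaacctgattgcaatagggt
Gatm: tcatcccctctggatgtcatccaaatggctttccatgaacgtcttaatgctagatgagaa
Ckb: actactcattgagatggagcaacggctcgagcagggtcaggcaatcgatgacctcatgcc

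Ddah1 was the member with the largest difference. Its brighter probe (NM_026993), whose sequence is given above and which begins at base 678 of the transcript, had log2 signals of 3.72, 3.97, and 3.69 on the WT arrays. On the Selenbp1-KO arrays it had 2.12, 1.64, and 3.17. The WT arrays lay close together, while the Selenbp1-KO arrays spread widely and all lay below the lowest WT array. The means were 3.79 ± 0.16 (SD, n = 3) and 2.31 ± 0.78 (SD, n = 3), a WT signal 2.79-fold that of Selenbp1-KO. The difference was −1.48 (standard error 0.38, 95% interval −2.42 to −0.54, unadjusted p = 0.0082 and adjusted p = 0.28 from limma). It was the 29th lowest difference of 56097, where 0.321% of probes differed by −1 or lower. Against WT replicate 4 alone, the WT array in the same slide row, the difference was −1.38. With the row as a block the limma p was 0.069 and the probe was not called.

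The dimmer Ddah1 probe lies 40591 bases further along chromosome 3 (chr3:145556803-145556862) and begins at base 3308 of the transcript. It had log2 signals of 2.43, 2.63, and 2.24 on the WT arrays. On the Selenbp1-KO arrays it had 2.06, 1.85, and 2.19. The groups again did not overlap, though Selenbp1-KO replicate 3 lay close to WT replicate 4. The difference was −0.40 (standard error 0.15, 95% interval −0.77 to −0.03, unadjusted p = 0.037 from limma). Against WT replicate 4 it was −0.21, and it was not called with the slide row as a block, with the median as the scale of each array, or without WT replicate 2, WT replicate 3, Selenbp1-KO replicate 1, or Selenbp1-KO replicate 2. Every Selenbp1-KO array lay below every WT array for 4.06% of all probes.

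The difference was larger by the brighter Ddah1 probe than by the dimmer. Within an array, the brighter minus the dimmer probe was 1.29, 1.34, and 1.45 on the WT arrays and 0.06, −0.21, and 0.98 on the Selenbp1-KO arrays. The WT arrays lay close together in this gap, and all Selenbp1-KO arrays lay below them. The change of this gap between genotypes was −1.08, with an exact permutation p of 0.1 (two-sided), the smallest that 3 arrays against 3 can give, and 0.5 after adjustment over the 5 members with a pair of probes. For Gatm, Asl, Ckb, and Ckmt1 the gap changed by −0.08 to 0.06 (exact permutation p 0.3 to 0.7). The file lists transcript ENSMUST00000127193 for the brighter Ddah1 probe and not for the dimmer probe, and it does not say which exon or untranslated region a probe lies in.

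**Figure D1:**
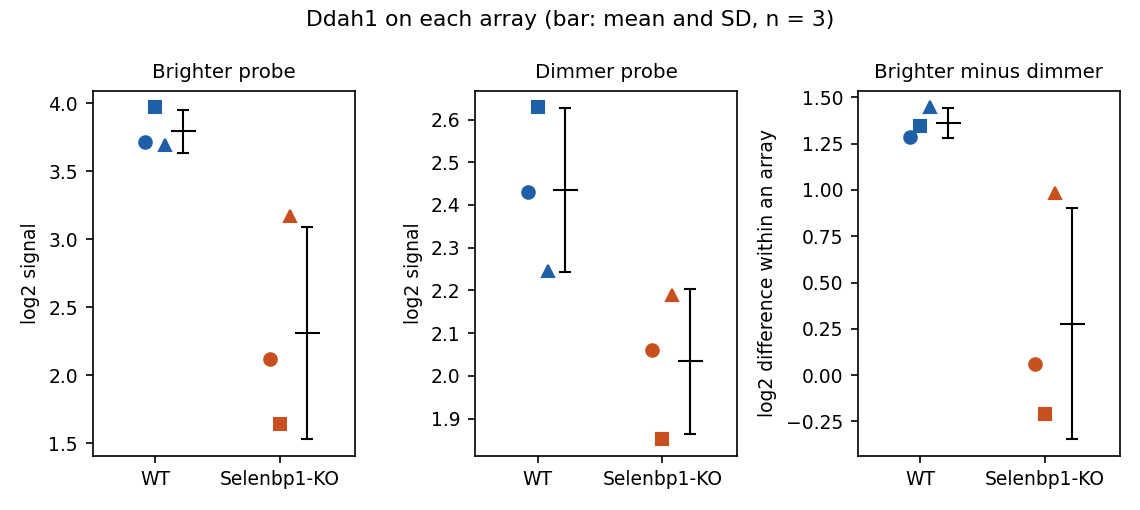
Log2 signal of the brighter Ddah1 probe, the dimmer Ddah1 probe, and their difference within each array, for WT (blue) and Selenbp1-KO (orange) kidneys, where circles, squares, and triangles are replicates 2, 3, and 4 for WT and 1, 2, and 3 for Selenbp1-KO. Bars are the mean and SD of 3 arrays, each panel has its own axis, and all Selenbp1-KO arrays lie below the WT arrays in each panel.

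The Selenbp1-KO arrays took the same order by both Ddah1 probes, with replicate 2 lowest and replicate 3 highest. The fat marker Adipoq (adiponectin) was 1.66, 2.70, and 0.19 on the Selenbp1-KO arrays and 0.55, 1.05, and −0.62 on the WT arrays. So the Selenbp1-KO array with the lowest Ddah1 had the highest Adipoq, whereas among WT arrays the highest Adipoq stood with the highest Ddah1. Of the other fat markers, Cfd was highest on the same arrays as Adipoq in each genotype. Plin1 was also highest in Selenbp1-KO replicate 2, but in WT it was highest in replicate 2 (−1.84, against −1.93 in replicate 3). The summed linear level of the 3 fat markers ranged from 10.1 to 39.5 in WT and from 18.3 to 99.8 in Selenbp1-KO kidneys, in multiples of the 75th percentile, and that of the 5 macrophage markers from 9.85 to 11.5 and from 11.7 to 12.7. None of these markers was at or near background, and their part in the Ddah1 difference was not tested. In whole kidneys, fewer cells of a type and less RNA per cell cannot be told apart.

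Ddah1 lies on chromosome 3, the chromosome of the targeted Selenbp1, at a distance of 50.8 Mb. A window of 1 Mb on each side, chosen after the values of Ddah1 were seen, held 65 other probes tested, of 42 genes. Of these 8 (12.3%) were called, against 7.98% of all probes, with 7 higher and 1 lower, and the lower was Mcoln2 (−0.42). Of the 8, 5 were not well above background on any array, and of the 65, 26 were on all 6. The median difference in the window was 0.09, near the 0.11 of all probes. Ddah2, the other dimethylarginine hydrolase, differed by 0.10 (95% interval −0.16 to 0.36).

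**Figure D2:**
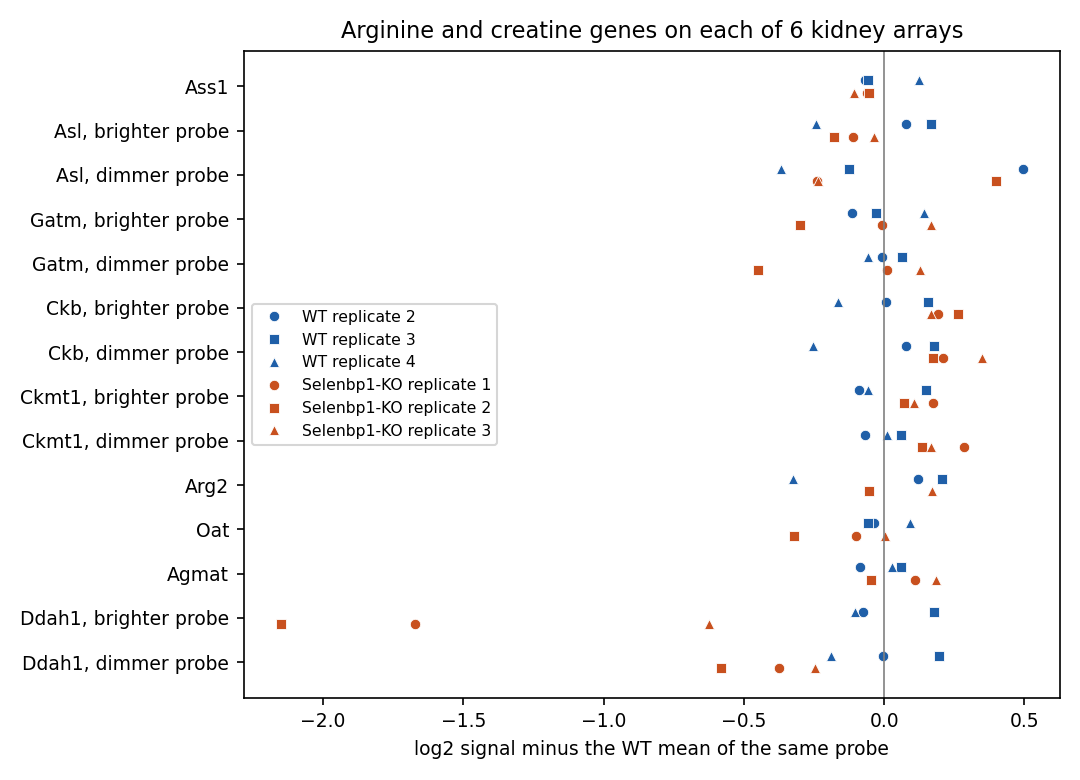
Log2 signal of each of the 14 member probes on each of the 6 arrays, minus the WT mean of the same probe, with WT in blue and Selenbp1-KO in orange. The brighter Ddah1 probe stands far to the left in Selenbp1-KO replicates 1 and 2, and most points of the other members lie within 0.5 of the WT mean.

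The enzymes that make arginine were not called. Ass1, which joins citrulline and aspartate (NM_007494, chr2:31376068-31376127), had log2 signals of 7.68, 7.69, and 7.88 on the WT arrays and 7.69, 7.70, and 7.64 on the Selenbp1-KO arrays. Only WT replicate 4 stood apart, at the top, and the groups overlapped. The difference was −0.07 (standard error 0.10, 95% interval −0.33 to 0.18, unadjusted p = 0.50 from limma). With quantile normalization, which moves the median difference of all probes from 0.11 to 0.00, it was −0.20 and was called (standard error 0.025, unadjusted p = 0.00052 and adjusted p = 0.26 from limma). With the authors' values it was −0.19 and was also called (unadjusted p = 0.00073 and adjusted p = 0.30 from limma). The probe also lists NR_002687, a transcribed copy that RefSeq names Gm5424, and signals of the pair cannot be told apart.

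Asl, which releases arginine from argininosuccinate, was read by a probe of NM_133768 across an exon junction (chr5:130487513-130487736, 60 bases in a span of 224). It had log2 signals of 4.04, 4.13, and 3.72 on the WT arrays and 3.86, 3.79, and 3.93 on the Selenbp1-KO arrays. The Selenbp1-KO arrays lay inside the WT range, and the difference was −0.11 (standard error 0.14, 95% interval −0.45 to 0.23, limma). A second probe named Asl, of transcript ENSMUST00000162230, ranged from −4.46 to −3.59 over the arrays and differed by −0.02 with an interval of −0.72 to 0.67. The sign of either Asl difference changed in some of the alternatives tried, so no direction is given.

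Gatm, the enzyme of the first step of creatine synthesis, was not called by either probe. The brighter probe (NM_025961, chr2:122420814-122420873) had log2 signals of 3.16, 3.24, and 3.41 on the WT arrays and 3.26, 2.97, and 3.44 on the Selenbp1-KO arrays. The dimmer probe, whose sequence is shown above, had 2.15, 2.22, and 2.10 on the WT arrays and 2.16, 1.70, and 2.28 on the Selenbp1-KO arrays. By both probes Selenbp1-KO replicate 2 was the lowest of the 6 arrays and Selenbp1-KO replicate 3 the highest. The differences were −0.05 (95% interval −0.42 to 0.33) and −0.10 (−0.52 to 0.31) in limma, and without Selenbp1-KO replicate 2 they were 0.08 and 0.07.

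The enzymes that use arginine, ornithine, or agmatine were not called. Arg2 (NM_009705, chr12:80252972-80253031), the mitochondrial arginase, had log2 signals of 0.31, 0.40, and −0.13 on the WT arrays and 0.14, 0.14, and 0.36 on the Selenbp1-KO arrays. WT replicate 4 was the lowest array, and the difference was 0.02 (95% interval −0.40 to 0.44), or −0.14 without that array. Oat (NM_016978, chr7:139749183-139749242), which converts ornithine to glutamate semialdehyde, had 5.10, 5.08, and 5.23 on the WT arrays and 5.04, 4.81, and 5.14 on the Selenbp1-KO arrays. Its difference was −0.14 (standard error 0.12, 95% interval −0.44 to 0.17, unadjusted p = 0.31 from limma), with Selenbp1-KO replicate 2 again the lowest. Agmat (NM_001081408, chr4:141315091-141315150) had 0.01, 0.15, and 0.12 on the WT arrays and 0.20, 0.05, and 0.28 on the Selenbp1-KO arrays, a difference of 0.08 (95% interval −0.19 to 0.35) with overlapping groups.

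The creatine kinases lay slightly higher in Selenbp1-KO kidneys by each of their 4 probes, and none was called. The brighter Ckb probe (NM_021273) had log2 signals of 1.505, 1.65, and 1.33 on the WT arrays and 1.69, 1.76, and 1.66 on the Selenbp1-KO arrays. The lowest Selenbp1-KO array was just above the highest WT array, and the difference was 0.21 (standard error 0.12, 95% interval −0.09 to 0.50, unadjusted p = 0.13 from limma). The dimmer Ckb probe spans an exon junction (chr12:112908459-112909105, 60 bases in a span of 647) and had 1.16, 1.25, and 0.82 on the WT arrays and 1.29, 1.25, and 1.43 on the Selenbp1-KO arrays. It differed by 0.24 (95% interval −0.11 to 0.60) with overlapping groups. Against WT replicate 4, the lowest WT array by both probes, the differences were 0.37 and 0.50 and were called with the slide row as a block, as both probes also were when limma was run with its trend and robust settings (0.21 and 0.24, unadjusted p = 0.030 and 0.020).

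Ckmt1 was read by a pair of probes that share 5 bases (NM_009897, chr2:121189359-121189418 and chr2:121189414-121189473). Like every pair of probes of a member, they read the same RNA on the same arrays and are not independent readings. The dimmer probe had log2 signals of 2.03, 2.16, and 2.12 on the WT arrays and 2.39, 2.24, and 2.27 on the Selenbp1-KO arrays. The Selenbp1-KO arrays all lay above the WT arrays, as for the brighter Ckb probe and for 9.22% of all probes, and the difference was 0.19 (95% interval −0.05 to 0.44, unadjusted p = 0.10 from limma). It was called in 4 of 16 alternatives, quantile normalization (0.18) among them. The brighter probe had 3.11, 3.35, and 3.14 on the WT arrays and 3.37, 3.27, and 3.31 on the Selenbp1-KO arrays, a difference of 0.12 (95% interval −0.15 to 0.39) with overlapping groups. Of the 4 creatine kinase differences, 0.12 to 0.24, none lay below the median of 0.11 over all probes. Over probes well above background throughout WT or throughout Selenbp1-KO arrays, as the member probes were, the median was 0.0033.

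**Figure D3:**
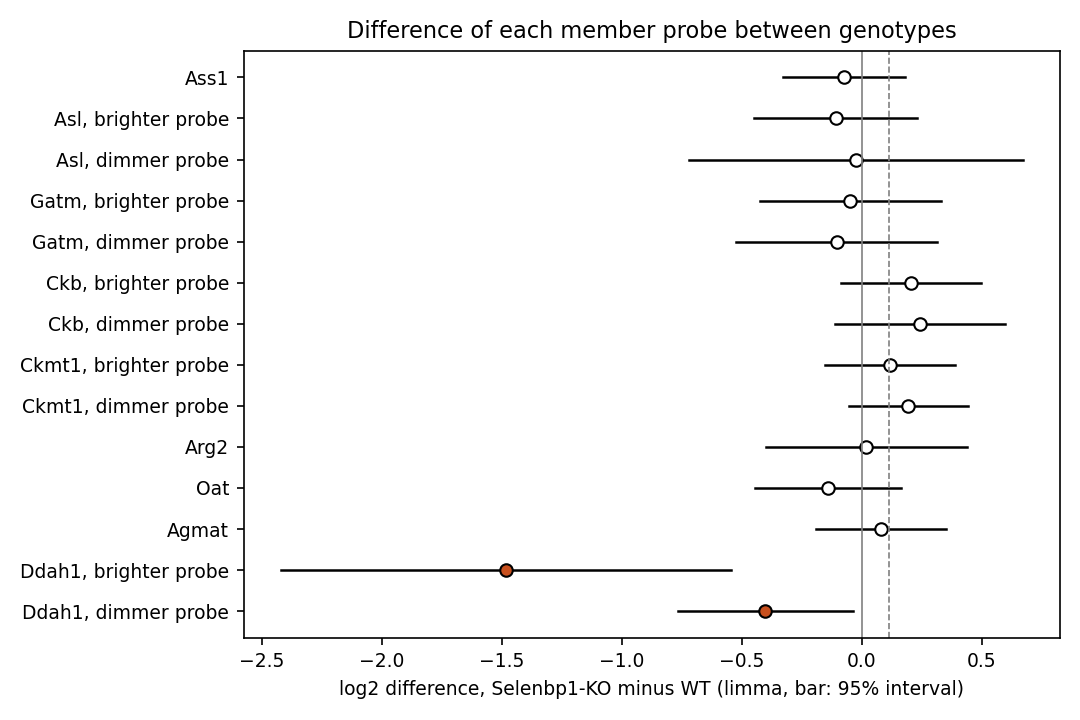
Difference of each member probe, Selenbp1-KO minus WT, on the log2 scale, with the 95% interval from limma. The solid line is 0 and the dashed line the median of all probes (0.11), filled points were called, and the intervals of the Ddah1 probes alone lie wholly on one side of 0. Over probes well above background throughout WT or throughout Selenbp1-KO arrays the median was 0.0033.

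The other genes around the members were read from a list of 40 genes of creatine, urea cycle and ornithine, proline, polyamine, nitric oxide, and basic amino acid transport. Of these 39 were measured (no probe is named Amd1), each by its brightest probe, and none was called, where 8.00% of 37028 genes were. The differences were higher for 26 and lower for 13, with a median of 0.10 against 0.13 over all genes. With quantile normalization 21 were higher and 18 lower. Between 0 and 6 were called in the alternatives, where 3.61% to 32.9% of all probes were. The lowest unadjusted p was 0.052, for Nos1 (0.44), which was well above background on 3 of the 6 arrays and is named because of that p. Among the 30 genes well above background on all arrays, the median was 0.07, against 0.02 over all such genes.

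Gamt, which methylates guanidinoacetate to creatine, had a log2 signal of 2.16 ± 0.16 in WT and 2.41 ± 0.08 in Selenbp1-KO kidneys (SD, n = 3), a difference of 0.25 (unadjusted p = 0.090 from limma). The creatine transporter Slc6a8 had 4.94 ± 0.03 and 4.82 ± 0.11 (SD, n = 3), a difference of −0.13 (95% interval −0.38 to 0.13). Neither passed the criterion, though Gamt was called with the trend and robust settings (0.25) and without WT replicate 2 (0.34), and Slc6a8 with quantile normalization (−0.20) and the authors' values (−0.18). Odc1, ornithine decarboxylase, differed by 0.15 (95% interval −0.32 to 0.63), and Slc25a15, the mitochondrial ornithine carrier, by 0.10 (95% interval −0.20 to 0.40). The muscle creatine kinases Ckm and Ckmt2 and the urea cycle enzymes Otc, Cps1, and Nags were not well above background on any array, so their differences are between signals near background. All 6 genes listed for basic amino acid transport had a negative difference, from −0.22 (Slc7a1) to −0.02 (Slc3a1), with a median of −0.07 and none called. Among all genes well above background on all 6 arrays, 8246 of 18364 had a negative difference. All 6 transport genes were also negative with quantile normalization, 5 with normexp background correction, and 4 with the slide row or the replicate number as a block.

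**Figure D4:**
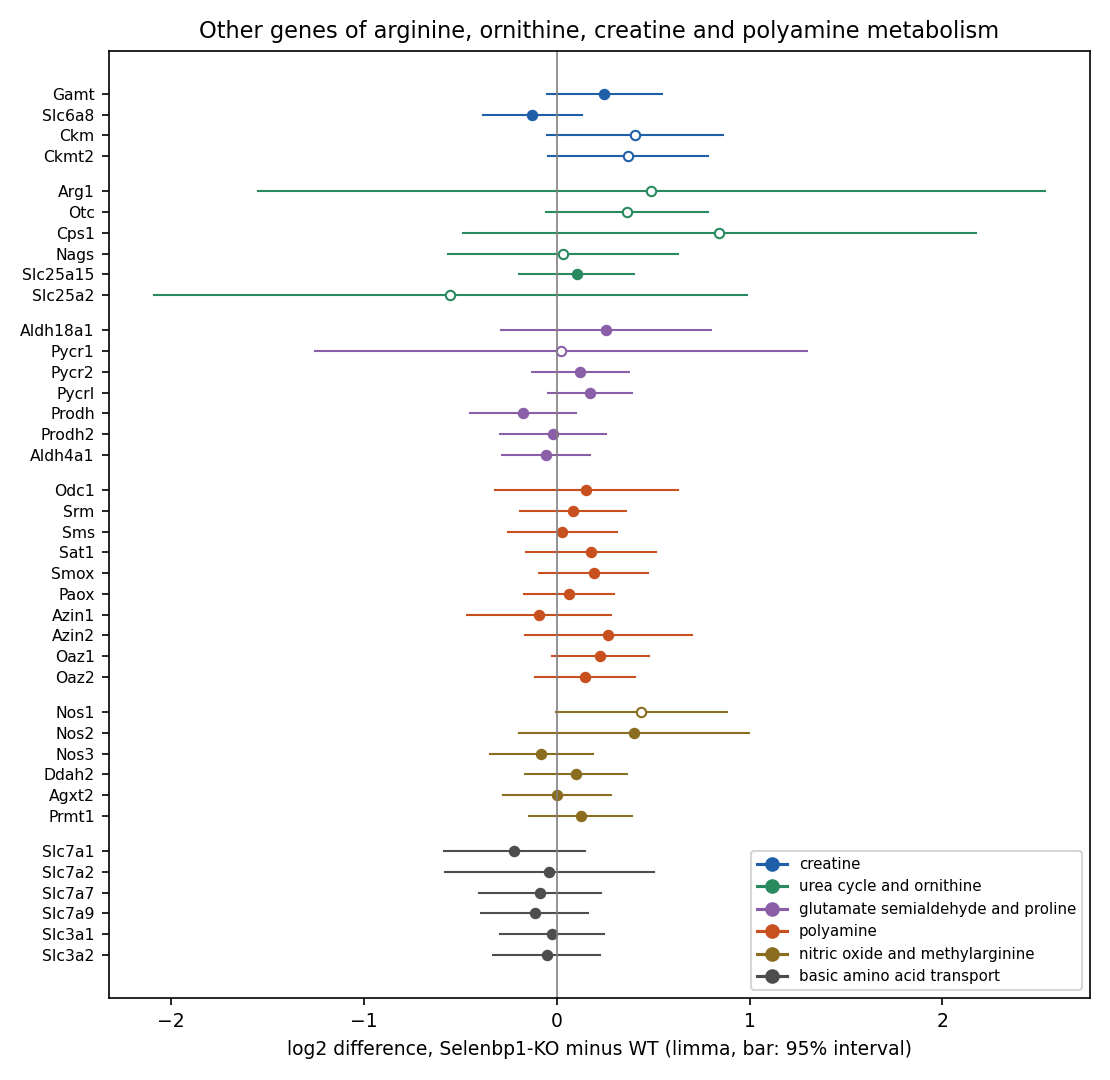
Difference of 39 other genes of arginine, ornithine, creatine, and polyamine metabolism, Selenbp1-KO minus WT on the log2 scale, with the 95% interval from limma and colors for the 6 groups. Open points were well above background on fewer than 6 arrays, and every interval includes 0.

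The genes most like Gatm over the 6 arrays, among 18322 genes outside these lists well above background on all arrays, were Fkbp9, Ptpra, and Btg3 (Pearson r 0.996, 0.994, and 0.994). Among those most like Ckb were Penk and Cenpw (r 0.994 and 0.993), of which Penk, the precursor of enkephalins, differed by 0.997 between genotypes. Those most like Ddah1, a choice made after its values were seen, were E330009J07Rik, Zfp160, and Gm9963 (r 0.995, 0.993, and 0.993), with differences of −0.14, −0.27, and −0.24. These correlations describe 6 arrays that share 1 slide. They were picked as the highest among 18322 genes, and how high r would reach for unrelated genes was not tested. No shared regulation is read from them.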

How the data were processed

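Kidney RNA of 3 WT and 3 Selenbp1-KO mice was measured on 1-color Agilent arrays. The authors deposited, per the file headers, Feature Extraction output (version 10.7.1.1, and 9.5.1.1 per the labels) with mm9 coordinates: linear intensities, background-subtracted but not scaled between arrays, with a detection p-value for each spot computed before the authors deposited the files. They also deposited a table of quantile normalized intensity values. The RNA kit differs between the labels and the methods.

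Here, each array's log2 intensities were set relative to their own 75th percentile. Flagged spots were left out, spots of a probe were averaged, and the 56097 probes detected on any array (detection p under 0.05) were compared with limma (version 3.58.1, two-sided, R 4.3.3). The fit was also run on simulated data, with independent noise, the same spread in both genotypes, and no effect of slide row. It therefore does not check the p-values where the spread differs between genotypes or the slide row matters. A gene is its brightest probe over the 6 arrays. Named are all 9 members, called genes of the list of 40, Gamt, Slc6a8, Odc1, and Slc25a15, the label check, and the 3 genes most correlated with Gatm and with Ckb, of which 1 is not reported here. Other genes named from the list of 40 (Nos1, Ddah2, Ckm, Ckmt2, Otc, Cps1, Nags, Slc7a1, and Slc3a1) and Mcoln2 were chosen after their values were seen. The members and lists were chosen with earlier results of these data known. RefSeq gave gene symbols only, and 32994 probes matched it by accession. The number of arrays limits the precision. Alternatives were normexp (offset 50), quantile or median scaling, the authors' values, other filters, flagged spots kept, limma's trend and robust options (statmod 1.5.0), blocks for slide row and replicate number, leaving out each array, and the mean of a gene's probes.

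Beside the lists named in the report, markers of late proximal tubule (0 of 5 called), distal nephron (1 of 8, Pvalb 0.32), glomerulus (0 of 4), skeletal muscle (0 of 4), and adrenal (0 of 3) were read.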

Additional observations from a re-analysis of the deposited data

How the results depend on the processing

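The brighter Ddah1 probe was negative in all 16 alternatives that read it, from −1.91 to −1.15, and its unadjusted p was under 0.05 in 15, failing with the slide row as a block. The mean of both Ddah1 probes differed by −0.94 and was called. The lowest adjusted p of the brighter probe in limma was 0.089, without WT replicate 4. That setting called 31.3% of all probes, against 7.98%, and left no WT array in the slide row of the Selenbp1-KO arrays. The dimmer probe was called in 10 of 16. The 2 called member probes became 4 with quantile normalization (8.37% of all probes called, 46.2% of these lower, against 18.9%). They became 4 with the authors' values (8.36% of all probes called, 44.9% of these lower). Median scaling gave 1 (26.1% of all probes called) and trend and robust options gave 5 (13.4%). Without each array in turn 1 to 2 were called (3.61% to 31.3% of all probes). The member genes called became 2 with quantile normalization, the authors' values, and the trend and robust options. With the slide row as a block 2 member probes were called, both of Ckb and both higher, and neither Ddah1 probe was. That setting called 6.51% of all probes.

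Of all probes, 14616 were called with median scaling, 7536 with trend and robust options, and 2024 (without WT replicate 2) to 17585 (without WT replicate 4) with 1 array left out. With limma refitted to the 28513 probes well above background throughout a genotype, 2841 (9.96%) were called, 3 of them member probes. The 5.65% given for such probes was read from the fit across all probes. For genes of the list of 40, percentages are of all probes called in the same setting. Those called became 2 with normexp (11.2%), and 4 each with quantile normalization (8.37%), median scaling (26.1%), and the authors' values (8.36%). The refit to well above background probes called 2 of 30 (9.96%). Trend and robust options called 6 of 39 (13.4%), and the slide row as a block 3 (6.51%). With 1 array left out 0 to 6 were called, 6 being without WT replicate 4 (31.3%). The replicate number as a block, with only numbers 2 and 3 shared (r of deviations 0.16 and 0.21, a number that need not pair the mice), gave 18430 probes (32.9%) and 6 genes of the list, Gatm at 0.0047, and Arg2 at −0.11.

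With 1 array left out, Gatm ranged from −0.15 to 0.079, its dimmer probe from −0.22 to 0.069, the dimmer Asl probe from −0.24 to 0.22, and Arg2 from −0.14 to 0.12. The sign changed for Gatm without WT replicate 4 (0.02) or Selenbp1-KO replicate 2 (0.079, dimmer probe 0.069), for Asl with the slide row (0.14), for the dimmer Asl probe with normexp (0.13), the slide row (0.34), without WT replicate 2 (0.22), and without Selenbp1-KO replicates 1 or 3 (0.08 each), and for Arg2 without WT replicate 4 (−0.14) or Selenbp1-KO replicate 3 (−0.05). The causes were not tested.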
